A study of Homo sapiens with 6 samples.

Results

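The transcripts described here encode the mitotic cyclins CCNB1, CCNB2 and CCNA2, their kinase CDK1, which the array lists under its older symbol CDC2, and the enzymes that switch this kinase on and off. They were the 10 targets whose symbol was one of these names or PLK1, AURKA, CDC25B, CDC25C, WEE1 or PKMYT1, among 37879 targets measured on each array. RNA was recovered from HEK293T cells, a human embryonic kidney line that carries the SV40 large T antigen, after immunoprecipitation with an anti-FLAG antibody. In the control IP (n = 3 arrays) the cells carried an empty vector, and in the Stau1 IP (n = 3 arrays) they carried plasmids coding for Stau155-FLAG, a tagged form of the double-stranded RNA-binding protein Staufen1 driven by a Rous sarcoma virus promoter. Both groups had received 50 ng/ml nocodazole, a drug that depolymerizes microtubules and arrests cells in prometaphase, for 15 h according to the labels, whereas the study's methods give a longer time for HEK293T cells. The tagged protein was added to cells that kept their own Staufen1. The labels do not say whether the numbered replicates came from separate cultures, so the p-values given here measure only the spread between these arrays, which may be technical. The RNA came from bulk lysates, in which fewer cells of a type and less RNA per cell cannot be told apart. Arrays of the lysate before precipitation were not analysed here, so a level on an array is that in the precipitate only.

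Entry into mitosis is a switch built around CDK1 bound to cyclin B. During G2 the kinases WEE1 and PKMYT1 hold the complex inactive by phosphorylating CDK1 near its ATP-binding site, and the CDC25 phosphatases remove those phosphates. AURKA, with its cofactor BORA, activates PLK1, which promotes CDC25 activity and the destruction of WEE1, and cyclin A with its CDK partners helps to start the process. In prometaphase the switch is on, and cyclin B is held back from destruction by the spindle checkpoint while kinetochores lack attachment.

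Many of these genes are transcribed late in the cell cycle through a pair of promoter elements, the CHR, here searched as TTTGAA, and CCAAT boxes. Promoters from 250 bases before to 50 bases after each annotated start were searched on both strands in RefSeq sequences of GRCh38.p14, where 7 of the 10 genes had 14 promoter entries. TTTGAA was present in 6 of these 14 entries and in 15.2% of all 35116 promoters of this length. CCAAT was present in 10 of the 14 entries and in 34.6% of all promoters, and both motifs in 6 of 14 and in 5.9%. The motifs share no letters of one site, and entries of 1 gene overlap in sequence. The following windows show the element that 4 of the genes share, with TTTGAA in capitals and written 5′ to 3′ on the strand of the gene, and a CCAAT box of CCNB1, also in capitals. A match is a description of the letters and not of a bound site, and the arrays measured RNA, not promoters.
CCNB2, chr15:59105107-59105132, plus strand: cgacgcggtaTTTGAAtcctggaaca
CDK1 (CDC2), chr10:60778455-60778480, plus strand: gcgcggtgagTTTGAAactgctcgca
PLK1, chr16:23678850-23678875, plus strand: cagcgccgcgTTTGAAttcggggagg
CDC25C, chr5:138331819-138331844, minus strand: tggcggaaggTTTGAAtggtcaacgc
CCNB1, chr5:69167085-69167109, plus strand: cacgaacaggCCAATaaggagggag

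The arrays were Illumina BeadChips, on which each target has a signal intensity averaged over many beads and a detection p-value that ranks it among negative-control beads. Between 11635 and 13054 targets per array had a detection p under 0.05, and 9884 had one on all 6 arrays. Across these 9884 targets, Stau1 IP arrays 1 and 3 had a Pearson correlation of 0.996 with each other but of 0.940 and 0.943 with Stau1 IP array 2, whereas Stau1 IP array 2 correlated at 0.977 with control IP array 3. Control IP array 2 correlated at 0.983 and 0.984 with Stau1 IP arrays 1 and 3, and at 0.977 and 0.982 with control IP arrays 1 and 3. Stau1 IP array 2 therefore went against its label over the array as a whole, while control IP array 2 was about as near to either group. Whether the groups of the arrays numbered 2 had been exchanged was not tested. Each comparison of the 10 transcripts is given by the labels on all 6 arrays and also on arrays 1 and 3 of each group alone, with the arrays numbered 2 shown singly. The 4 arrays were kept after values had been seen, so their p-values describe those arrays. The HEK293 markers NEFM, NEFL, INA and CKB were detected on all 6 arrays, while PAX2 was detected on 1 and LHX1 on 2. Of 6 measured markers of other cell types, 5 were detected on no array and PECAM1 on all 6, at a signal of 111 to 144. STAU1 itself had a log2 fold change of -0.16 ± 0.16 (SE, n = 3 per group, adjusted p = 0.875 from limma). Its probe position is not given, so this checks neither the plasmid transcript nor the labels.

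By the labels, none of the 10 transcripts differed between Stau1 IP and control IP after adjustment, and 2 lay apart without overlap, PKMYT1 higher and CCNB2 lower. All 10 were detected on all 6 arrays. On the scale used below, a normalized signal close to log2 of the intensity, the difference of Stau1 IP minus control IP was above 0 for 2 of the transcripts and below 0 for 8, with a median of -0.14. The median was 0.0028 over all targets and -0.0072 over the 9884 detected on all arrays. At the study's threshold, a fold above 2.5 with an unadjusted p under 0.05, none of the 10 passed, and 0.00264% of all targets passed as higher and 0% as lower. After Benjamini-Hochberg adjustment over all 37879 targets (limma) none of the 10 passed at 0.05, where 0.00264% of all targets did, and the methods' t-test also called none. At an unadjusted p under 0.05 from limma, 1 of the 10 was higher and 2 were lower, against 3.89% and 4.98% of all targets. Among targets detected on all 6 arrays the shares were 9.51% and 12.8%. The groups lay apart with Stau1 IP higher for 6.74% of all targets and lower for 7.56%, and for 9.22% and 13.5% of those detected on all arrays. In an exact permutation test 3 arrays against 3 cannot give a two-sided p under 0.1.

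On arrays 1 and 3 alone, PKMYT1 rose and CCNB1, CCNB2 and PLK1 fell at an adjusted p under 0.05 from limma (n = 2 arrays per group). The background of this comparison was 6.73% of all targets called, 3.74% higher and 2.99% lower, and 11.3% and 10.2% of the targets detected on all arrays. At an unadjusted p under 0.05 from limma, 1 of the 10 was higher and 4 were lower, where 8.55% and 8.71% of all targets were, and 23.2% and 26.2% of those detected on all arrays. With each array centred on its median, the calls over all targets split as 1667 higher and 743 lower, where the splined values gave 1417 and 1132. None of the 10 passed a fold of 2.5, as 0.634% of all targets did in the higher and 0.0528% in the lower direction. The groups lay apart for 1 transcript in the higher direction, where 22.8% of all targets and 30.5% of those detected on all arrays did. In the lower direction they lay apart for 4, where 23.7% and 37.9% did. The median of the 10 differences was -0.23. The calls rest on the settings. In 8 alternatives that kept all 4 arrays, CCNB1 kept its call in 6, PKMYT1 in 5, and CCNB2 and PLK1 in 3 each. None of these transcripts was called with neqc background correction or with the methods' t-test. Calls over all targets fell there from 2549 to 249 and to 0. On leaving out 1 of the 4 arrays, CCNB1 ranged from -1.06 to -0.86 and CCNB2 from -0.74 to -0.50. PLK1 ranged from -0.69 to -0.46 and PKMYT1 from 0.50 to 0.66.

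**Figure D1:**
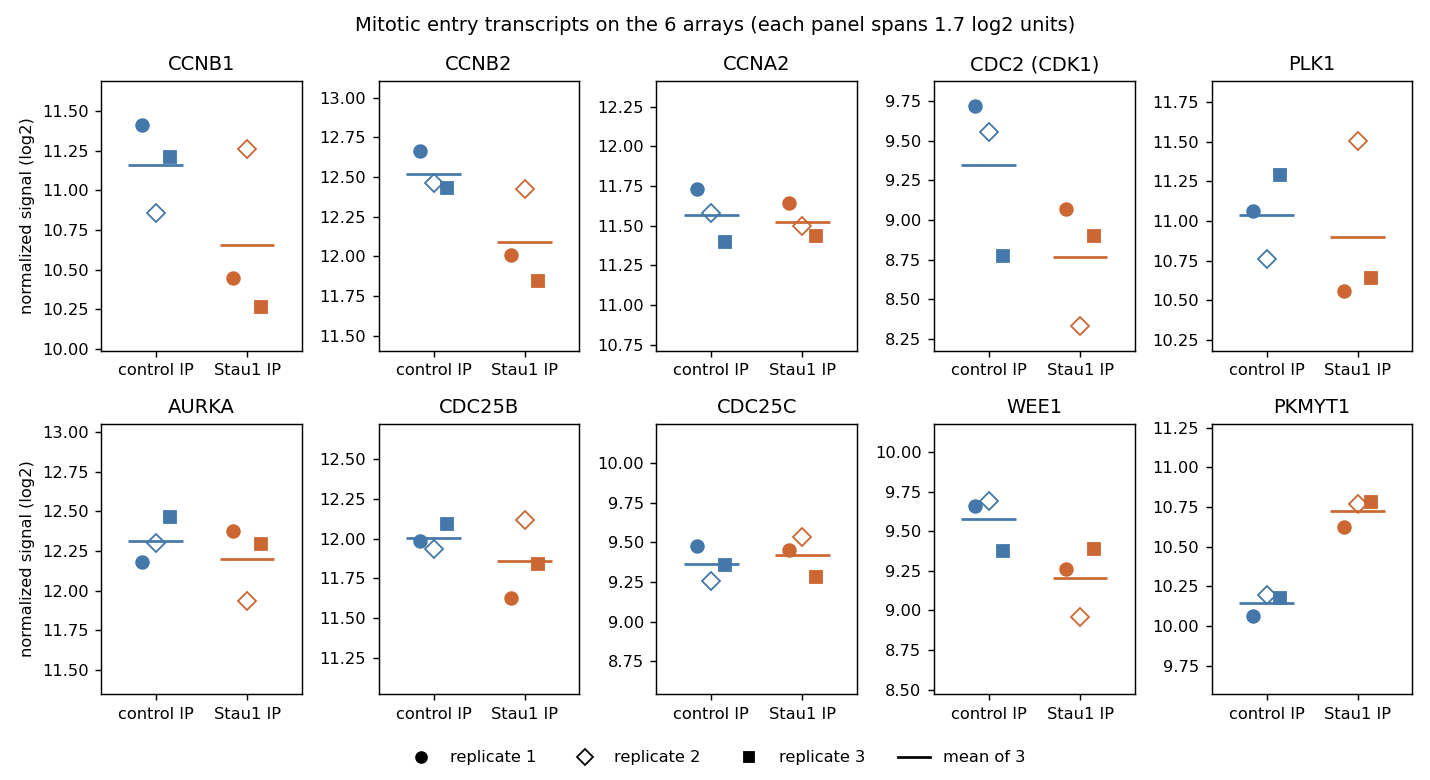
Normalized signal (log2) of each of the 10 transcripts on the 6 arrays, with circles for array 1, open diamonds for array 2, squares for array 3 and lines for the mean of 3, each panel spanning 1.7 log2 units. The Stau1 IP arrays of PKMYT1 all sit above the control IP arrays, while the open diamond of Stau1 IP sits beside the controls for CCNB1 and CCNB2.

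The B-type cyclins, which give CDK1 its activity and location, had lower levels on 2 of 3 Stau1 IP arrays. CCNB1 (chromosome 5), the main mitotic cyclin, had a raw signal of 2576, 2052 and 2329 on control IP arrays 1 to 3 and of 1439, 2380 and 1419 on Stau1 IP arrays 1 to 3. Stau1 IP arrays 1 and 3 were the lowest of the 6, and Stau1 IP array 2 lay within the control range, so the labelled groups overlapped. The normalized level was 11.16 ± 0.28 in control IP and 10.66 ± 0.53 in Stau1 IP (log2, SD, n = 3 each), a difference of -0.50 with a 95% interval from -1.23 to 0.22 (adjusted p = 0.729 from limma). On arrays 1 and 3 the difference was -0.96 ± 0.10 (SE, log2, n = 2 per group, adjusted p = 0.0149 from limma), a 1.94-fold lower level. The standard error between beads was at most 4.77% of the signal of CCNB1 on any array, less than the gap between the low pair of arrays and the others.

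CCNB2 (chromosome 15), the B-type cyclin found largely at the Golgi, had a raw signal of 6693, 6156 and 5475 in control IP and of 4097, 5954 and 3971 in Stau1 IP. Stau1 IP arrays 1 and 3 were again the lowest pair. After normalization the groups lay apart by a margin of under one bead error, as control IP array 3 stood at 12.43 and Stau1 IP array 2 at 12.42. The means were 12.52 ± 0.13 and 12.09 ± 0.30 (log2, SD, n = 3 each), and the difference was -0.43 with an interval from -0.82 to -0.035 (adjusted p = 0.522 from limma, exact permutation p = 0.1). With the arrays numbered 2 left out it was -0.62 ± 0.10 (SE, n = 2 per group, adjusted p = 0.0437 from limma), a 1.54-fold lower level.

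CCNA2 (chromosome 4), the cyclin of S phase and early mitosis, differed between the groups by less than the spread of the arrays. Its raw signal was 3294, 3306 and 2650 in control IP and 3213, 2856 and 3006 in Stau1 IP. The difference was -0.043 on 6 arrays, with a 95% interval from -0.29 to 0.21, and -0.023 on arrays 1 and 3, with an interval from -0.39 to 0.34.

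CDC2 (chromosome 10), which encodes CDK1, spread the most among the 10 transcripts, over 1.39 log2 units. Its raw signal was 753, 840 and 396 in control IP and 546, 256 and 528 in Stau1 IP. Control IP array 3 lay among the Stau1 IP arrays, and Stau1 IP array 2 was the lowest of all. The difference was -0.58 ± 0.31 (SE, n = 3 per group), with an interval from -1.35 to 0.18 (adjusted p = 0.698 from limma). Without the arrays numbered 2 it was -0.27 with an interval from -1.11 to 0.58. Of the 10 transcripts it had the widest interval in both comparisons, so a change as large as that of PKMYT1 was not detectable for CDC2. On 6 arrays the same held for CCNB1 (interval from -1.23 to 0.22) and PLK1 (interval from -0.84 to 0.57).

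**Figure D2:**
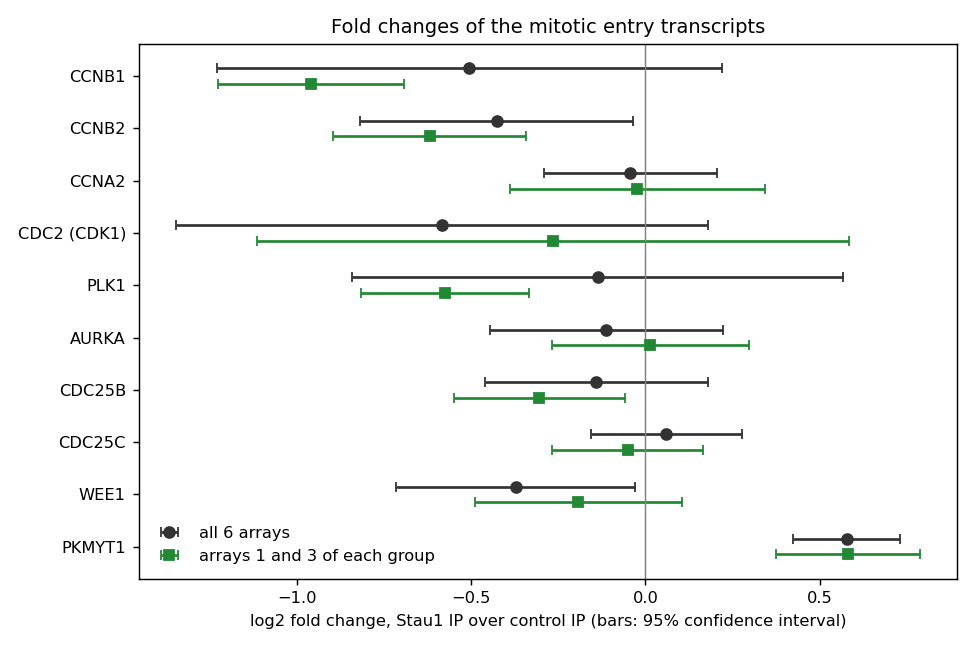
Difference of Stau1 IP minus control IP (log2) for the 10 transcripts on all 6 arrays (dark circles) and on arrays 1 and 3 of each group (green squares), with bars for the 95% confidence interval. The interval of PKMYT1 lies above 0 in both comparisons, and that of CCNB1 spans 0 on 6 arrays but lies between -1.23 and -0.69 on arrays 1 and 3.

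Of the entry kinases, PLK1 (chromosome 16), the Polo-like kinase that activates CDC25 and matures centrosomes, had a raw signal of 1966, 1932 and 2461 in control IP and of 1557, 2875 and 1814 in Stau1 IP. Stau1 IP array 2 was the highest of the 6 arrays and the other Stau1 IP arrays were the lowest. The difference by the labels was -0.14 with an interval from -0.84 to 0.57 (adjusted p = 0.957 from limma, n = 3 per group). Arrays 1 and 3 gave -0.57 ± 0.091 (SE, n = 2 per group, adjusted p = 0.0377 from limma), a 1.49-fold lower level.

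AURKA (chromosome 20), the centrosomal Aurora kinase that activates PLK1, did not pass the test in either comparison. Its raw signal was 4676, 5472 and 5597 in control IP and 5204, 4055 and 5428 in Stau1 IP. Stau1 IP array 2 was the lowest, and the other 5 arrays overlapped. The difference was -0.11 with an interval from -0.45 to 0.22 by the labels, and 0.014 with an interval from -0.27 to 0.30 on arrays 1 and 3.

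The phosphatases that activate CDK1 showed small differences. CDC25B (chromosome 20), the centrosomal starter phosphatase, had a raw signal of 4023, 4215 and 4324 in control IP and of 3173, 4699 and 3962 in Stau1 IP. Stau1 IP array 2 was the highest and the other Stau1 IP arrays the lowest, as for PLK1. The order of all 6 arrays matched that of PLK1 after normalization but not in raw signal. The difference was -0.14 by the labels (interval from -0.46 to 0.18) and -0.30 on arrays 1 and 3 (interval from -0.55 to -0.06, adjusted p = 0.185 from limma, n = 2 per group), where it did not pass. CDC25C (chromosome 5), which CDK1 itself activates in a feedback loop, had a raw signal between 613 and 725 on all 6 arrays, the narrowest normalized range of the 10 at 0.28 log2 units. Its difference was 0.061 (interval from -0.15 to 0.28) by the labels and -0.050 (interval from -0.27 to 0.17) on arrays 1 and 3.

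The kinases that inhibit CDK1 had differences of opposite sign. PKMYT1 (chromosome 16), the membrane-bound inhibitory kinase, had a raw signal of 963, 1321 and 1115 in control IP and of 1622, 1652 and 1983 in Stau1 IP. Every Stau1 IP array was above every control IP array, array 2 included. The normalized levels were 10.15 ± 0.072 and 10.72 ± 0.088 (log2, SD, n = 3 each), a difference of 0.58 ± 0.062 (SE) with an interval from 0.43 to 0.73, or 1.49-fold. The unadjusted p was 1.13e-04 and the adjusted p 0.134 from limma, and the exact permutation p was 0.1. The difference on arrays 1 and 3 was again 0.58 ± 0.078 (SE, n = 2 per group, adjusted p = 0.0255 from limma).

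WEE1 (chromosome 11), the nuclear inhibitory kinase, had a raw signal of 719, 927 and 622 in control IP and of 631, 389 and 769 in Stau1 IP. Stau1 IP array 2 was the lowest by a wide margin, and Stau1 IP arrays 1 and 3 lay within the control range of raw signal. After normalization Stau1 IP array 3 still did, while Stau1 IP array 1 stood at 9.26, below the lowest control at 9.37. The difference was -0.37 with an interval from -0.72 to -0.03 (adjusted p = 0.524 from limma, n = 3 per group). Arrays 1 and 3 gave -0.19 with an interval from -0.49 to 0.10.

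Read singly against the mean of control IP arrays 1 and 3, Stau1 IP array 2 followed a different order of genes than its 2 partners. It stood within 0.13 log2 units of that mean for CCNB1 and CCNB2, and 0.33 above it for PLK1, which are 3 of the 4 transcripts called on arrays 1 and 3. It stood 0.91 above the Stau1 IP arrays 1 and 3 for CCNB1 and 0.90 above them for PLK1. For CDC2, WEE1 and AURKA it was lower than every other array, at -0.92, -0.56 and -0.39 from the control mean. For PKMYT1 it was 0.65 above that mean, with its Stau1 IP partners. Control IP array 2 lay -0.46 and -0.41 from the mean of the other control IP arrays for CCNB1 and PLK1, in the direction of Stau1 IP arrays 1 and 3, and 0.079 from it for PKMYT1. Of the 2122 targets detected on all arrays and called on arrays 1 and 3, Stau1 IP array 2 lay nearer to the control mean for 75.1%, and control IP array 2 nearer to the Stau1 mean for 51.2%, so PKMYT1 belonged to the smaller share of targets for which Stau1 IP array 2 kept to its label.

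**Figure D3:**
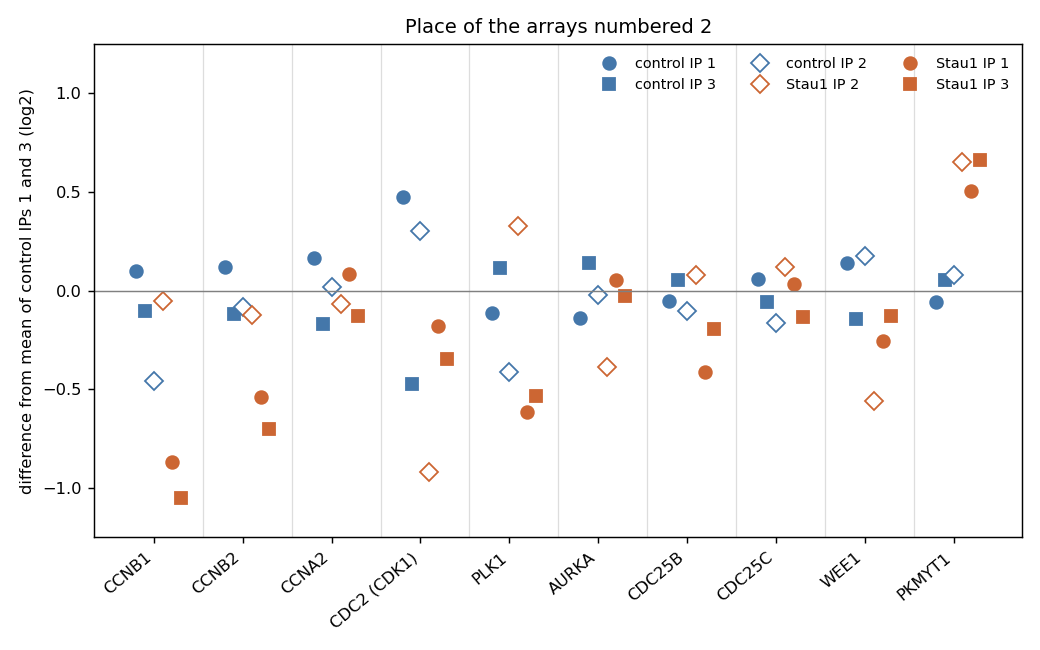
Difference of every array from the mean of control IP arrays 1 and 3 (log2) for the 10 transcripts, with open diamonds for the arrays numbered 2. Stau1 IP array 2 sits with the controls for CCNB1, with Stau1 IP arrays 1 and 3 for PKMYT1, and at -0.92 for CDC2 is below all other arrays.

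The 57 other genes of the pathway, listed by role, were all on the array, and 44 were detected on all 6 arrays. By the labels none passed adjustment (limma), 2 were higher and 11 lower at an unadjusted p under 0.05, where 3.89% and 4.98% of all targets and 9.51% and 12.8% of those detected on all arrays were. Their median difference was -0.075. After adjustment on arrays 1 and 3, 2 were called higher and 7 lower, where 3.74% and 2.99% of all targets and 11.3% and 10.2% of those detected on all arrays were, with a median of -0.053. The trimeric CDK-activating kinase, which phosphorylates CDKs on their activation loop, had lower mean levels in Stau1 IP for all of its subunits by the labels, with no call. Its cyclin CCNH had a raw signal of 3224, 2493 and 1835 in control IP and of 1234, 1258 and 1324 in Stau1 IP, and a difference of -0.99 ± 0.21 (SE, n = 3 per group, adjusted p = 0.271 from limma). All 3 Stau1 IP arrays, array 2 included, were below all controls. The assembly factor MNAT1 differed by -0.96 (adjusted p = 0.404 from limma) and the kinase CDK7 by -0.55 (adjusted p = 0.265 from limma). Their groups also lay apart, with Stau1 IP array 2 at -0.66 and -0.81 from the mean of control IP arrays 1 and 3. Groups lay apart in the lower direction for 4 of the 8 genes of this list. The shares were 7.56% of all targets and 13.5% of those detected on all arrays. CCNH and MNAT1 were named because their differences were the largest of the list. CDK7 was called lower on arrays 1 and 3 at -0.51 (adjusted p = 0.0499 from limma), and CCNH and MNAT1 were not, at -1.10 and -1.25.

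In the Aurora and Polo network 4 of 12 genes were called lower on arrays 1 and 3 and none higher, where 10.2% and 11.3% of the targets detected on all arrays were, and 2.99% and 3.74% of all targets. AURKB, the kinase of the chromosomal passenger complex, differed by -0.62 there (adjusted p = 0.0115 from limma) but by -0.14 on 6 arrays (adjusted p = 0.965 from limma), and Stau1 IP array 2 stood 0.48 above the mean of control IP arrays 1 and 3, the highest of the 6 arrays. The AURKA activator TPX2 differed by -0.52 on arrays 1 and 3 (adjusted p = 0.0278 from limma) and by -0.20 on 6 arrays (adjusted p = 0.872 from limma), again with Stau1 IP array 2 the highest. As for PLK1, the other Stau1 IP arrays were the lowest for both. For TPX2, however, Stau1 IP array 2 stood only 0.07 above the control mean, at 11.28 beside control IP array 1 at 11.27. The centriole duplication kinase PLK4 differed by -0.65 on arrays 1 and 3 and by -0.59 on 6 arrays (adjusted p = 0.0140 and 0.143 from limma), with Stau1 IP array 2 at -0.68 from the control mean beside its partners. The centrosomal kinase NEK2 differed by -0.55 and -0.38 (adjusted p = 0.0204 and 0.454 from limma). Its Stau1 IP array 2, at -0.17, was nearer to the control mean than to its partners but still below every control IP array. The AURKA cofactor BORA, listed as C13ORF34, was not called, at -0.63 on arrays 1 and 3, -0.60 on 6 arrays and -0.84 for Stau1 IP array 2.

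Among the genes that control CDC25 and WEE1, the checkpoint kinase CHEK1 was the only one of 10 called on arrays 1 and 3, higher at 0.71 (adjusted p = 0.00843 from limma). In that comparison 11.3% of the targets detected on all arrays were called higher and 10.2% lower, and 3.74% and 2.99% of all targets. By the labels it differed by 0.38 with overlapping groups (adjusted p = 0.757 from limma), and Stau1 IP array 2, at -0.11 from the control mean, was the lowest of the 6 arrays. YWHAE, a 14-3-3 protein that binds phosphorylated CDC25, differed by -0.56 on 6 arrays and -0.73 on arrays 1 and 3, and the checkpoint kinase CHEK2 by -0.44 and -0.51, without a call. Stau1 IP array 2 lay with its partners for both, at -0.68 and -0.54 from the control mean.

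Of the Greatwall and PP2A-B55 genes, whose phosphatase opposes CDK1, PPP2R2D was called lower on arrays 1 and 3, at -0.52 (adjusted p = 0.0172 from limma). Called lower there were 10.2% of the targets detected on all arrays and 2.99% of all targets. On 6 arrays it differed by -0.13 (adjusted p = 0.946 from limma), and Stau1 IP array 2 was the highest of all arrays, 0.19 above the control mean. The scaffold PPP2R1A stood at 0.38 on 6 arrays, 0.33 on arrays 1 and 3 and 0.40 for Stau1 IP array 2, and the inhibitor ENSA at 0.35, 0.74 and 0.19, both without a call.

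The CCAAT-binding subunit NFYC was the only one of 9 G2/M transcription factor genes called on arrays 1 and 3, lower at -0.79 (adjusted p = 0.0122 from limma). Of the targets detected on all arrays 10.2% were called lower there and 11.3% higher, and of all targets 2.99% and 3.74%. NFYC differed by -0.23 on 6 arrays (adjusted p = 0.936 from limma), with Stau1 IP array 2 the highest, 0.37 above the control mean. FOXM1, which drives late cell cycle genes, differed by -0.15 on 6 arrays and by -0.63 on arrays 1 and 3 without a call, and stood at 0.47 on Stau1 IP array 2. None of 8 G1 and S cyclin and CDK genes was called in either comparison. CDK4 stood at 0.61 on 6 arrays, 0.99 on arrays 1 and 3 and 0.10 for Stau1 IP array 2, and CCND3 at 0.40, 0.92 and -0.15. Of 3 CDK inhibitors CDKN1C was called higher on arrays 1 and 3, at 0.41 (adjusted p = 0.0174 from limma). By the labels it differed by 0.18 on 6 arrays (adjusted p = 0.826 from limma), where Stau1 IP array 2 was the lowest. CDKN1C was dim, with a raw signal of 129 to 226 where the background estimate was 78 to 90. CDKN1A differed by 0.57 on 6 arrays and 0.66 on arrays 1 and 3 and CDKN1B by -0.26 and 0.066, without a call, and Stau1 IP array 2 stood at 0.34 and -0.75 from the control mean.

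**Figure D4:**
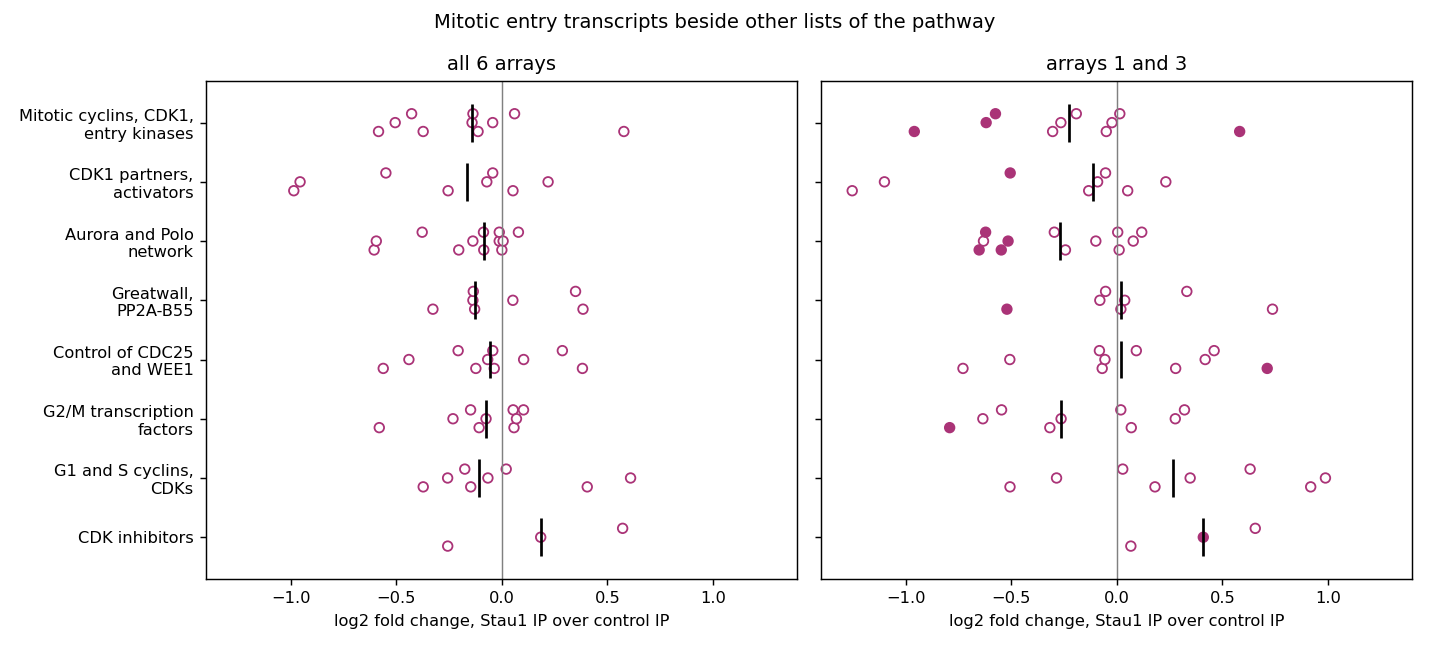
Difference of Stau1 IP minus control IP (log2) for the 10 mitotic entry transcripts and 57 other pathway genes by list, on all 6 arrays (left) and on arrays 1 and 3 (right), with filled circles for an adjusted p under 0.05, open circles for the others and bars for the list median. No circle is filled on the left, and on the right 4 of the 10 transcripts and 9 of the 57 other genes are.

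The pattern of CCNB1 over the 6 arrays was shared by some transcripts of other roles. Among 9385 targets with a symbol that were detected on all arrays and stood in no list, the Pearson correlation with CCNB1 was highest for ARPC2, a subunit of the Arp2/3 actin-nucleating complex, at 0.999, followed by PTTG3P and MTHFS at 0.996 each. PTTG3P is nearly identical to the securin gene PTTG1, so its signal may include that of PTTG1. ARPC2 had a raw signal of 3241, 1681 and 2360 in control IP and of 904, 2494 and 801 in Stau1 IP, the same order of arrays as CCNB1. Within the 10 transcripts CCNB2 was nearest to CCNB1 at 0.94, then PLK1 at 0.84 and CDC25B at 0.80, while AURKA and PKMYT1 ran against it at -0.40 and -0.58. These correlations are descriptions over 6 arrays that share their normalization.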

How the data were processed

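The authors deposited, for each of the 6 arrays, the signal intensity of 37879 targets as BeadStudio exported it, without background subtraction or normalization, with the standard error between beads, the bead number and a detection p-value. FlexArray, which the methods name, was not used here. Here R 4.3.3, limma 3.58.1 and mgcv (version 1.9.3) were used. Background was estimated on each array from the 200 targets whose detection p lay closest to 0.5, as their median intensity, and subtracted. A variance stabilizing transformation was fitted to the bead SD on each array over 500 bins, without the lowest 33.3% of signals. Its constant term reached the lower limit of 1 on all arrays, so it acted as a log2 of the signal plus a constant, which understates changes of dim targets. Robust spline normalization then fitted a monotone spline (10 knots) of every array to control IP array 3, and groups were compared with lmFit and eBayes, with Benjamini-Hochberg adjustment over all targets and no filter. Figures were drawn with matplotlib 3.10.9. The steps were tested on simulated data. The number of arrays limits the precision, and bead errors cover measurement within an array only. Bead numbers of CDC2, AURKA, CDC25B, PKMYT1 and CDC25C showed several probes combined into 1 value. Alternatives were other background corrections, normalizations, filters, tests, a replicate block and leaving out each array.

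The named genes were the 10 transcripts and STAU1, of each pathway list the 2 genes detected on all arrays with the largest difference, list genes past a call, and the 3 targets most like CCNB1. CDK7 was named with CCNH and MNAT1 as the rest of its complex. The members and lists were chosen with earlier results of these data known. Symbols of all 10 matched RefSeq, CDC2 as a synonym of CDK1.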

Additional observations from a re-analysis of the deposited data

How the results depend on the processing

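The sign of CCNB1, CCNB2, CDC2, CDC25B, WEE1 and PKMYT1 on 6 arrays was the same in all 19 alternatives run for each, but not the size. Either detection filter, the replicate block, the methods' t-test, the eBayes trend and leaving out background correction left the differences unchanged. Agreement of sign was therefore fixed in advance for those settings. On leaving out 1 array CCNB1 ranged from -0.81 (without Stau1 IP array 2) to -0.31 (without Stau1 IP array 3), CDC2 from -0.87 (without control IP array 3) to -0.37 (without Stau1 IP array 2), CDC25B from -0.27 (without Stau1 IP array 2) to -0.022 (without Stau1 IP array 1), CCNB2 from -0.59 to -0.30, WEE1 from -0.47 to -0.25 and PKMYT1 from 0.54 to 0.63. Over all 10 transcripts, 6 of 190 alternative values changed sign, where the 190 include the settings that could not change it. None of the differences on 6 arrays was called. The values that changed sign included one of PLK1, which was called on arrays 1 and 3. On leaving out 1 array, CCNA2 ranged from -0.13 to 0.038 (above 0 without control IP array 1 or Stau1 IP array 3), PLK1 from -0.44 to 0.034 (above 0 without Stau1 IP array 1) and AURKA from -0.20 to 0.021 (above 0 without Stau1 IP array 2). On arrays 1 and 3 AURKA turned to 0.014 and CDC25C to -0.050. The median of the 10 ranged from -0.26 to -0.11 on leaving out 1 array, with -0.26 without Stau1 IP array 2. STAU1 turned to 0.065 on arrays 1 and 3, and ranged from -0.26 to 0.019 on leaving out 1 array.

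By the labels 1 target was enriched, DLST, and none depleted at a fold of 2.5, and 1 passed adjustment, TTC3, lower. TTC3 had a detection p under 0.05 on only 3 of the 6 arrays. The enriched count became 3 with neqc, 3 with a quadratic variance term, 5 with log2 of the signal plus 50, 14 without normalization between arrays (where the median of all targets moved to 0.11), 3 with a trend in eBayes, 17 at a fold of 2 and 240 on arrays 1 and 3. The depleted count became 6, 4 and 1 with neqc, the quadratic term and log2, 16 at a fold of 2 and 20 on arrays 1 and 3. The adjusted count became 2 with neqc, 373 without normalization between arrays, 2549 on arrays 1 and 3, and 0 with log2, median centring, either detection filter or the trend. Leaving out 1 array gave 0 to 126 enriched, 0 to 8 depleted and 0 to 0 adjusted. The enriched count was 126 without Stau1 IP array 2, 11 without control IP array 2, 4 without control IP array 3 and 0 without Stau1 IP array 3.

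On arrays 1 and 3, the depleted count of 20 became 99 with neqc, 61 with the quadratic term and 38 with log2, and ranged from 13 to 125 on leaving out 1 array. The adjusted count of 2549 became 249 with neqc and 0 with the methods' t-test (2395 higher and 2148 lower at an unadjusted p under 0.05), and ranged from 0 to 6312. AURKA turned to -0.013 with neqc, -0.011 with quantile normalization and -0.065 with median centring, and CDC25C to 0.090 with median centring. Leaving out 1 array gave CCNA2 from -0.19 to 0.14 and CDC25C from -0.13 to 0.034 (both above 0 without control IP array 1 or Stau1 IP array 3), CDC2 from -0.74 to 0.21 (above 0 without control IP array 1) and AURKA from -0.13 to 0.15 (below 0 without control IP array 1 or Stau1 IP array 1). CDC25B gained a call with median centring, where 2410 of all targets were called, against 2549 with the main settings. Without control IP array 3, CDC2 stood at -0.74 and WEE1 at -0.33. Where 1 array was left in a group, it was assumed to vary like the other group. The cause of these changes was not tested.

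The deviations of arrays of the same number from their group means correlated at -0.45, -0.77 and -0.39. Deviations within a group balance each other out, so these values depend on one another. They cannot show whether arrays of the same number shared a culture or batch, which was not tested. With the replicate number as a block, 0 targets were enriched and 0 passed adjustment on 6 arrays, and 1779 passed on arrays 1 and 3. Alternatives on arrays 1 and 3 were chosen after seeing the data.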
